A study of Mus musculus with 203 samples.

Results

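Cxcl13, Cxcr5, Ccl19, Ccr7, Ccl20, Ccr6, Lta and Ltb were examined as the chemokines, chemokine receptors and lymphotoxins of organized lymphoid tissue. The set was proposed with earlier results of these data known, and all 8 genes were found among the 43346 gene identifiers of the expression table. House dust mite extract (HDM) raised 7 of the 8 in both lung compartments at both time points by limma-voom, and Ccr7 was not called changed. Of all genes tested, 10.6% to 14.5% were called higher in those comparisons. In airway at 3 weeks edgeR and DESeq2 called 6, leaving out Ccl19. Smoke alone raised Ccl20 and Lta in the parenchyma and Ccl19 in the airway (the last in limma-voom but not in edgeR or DESeq2), and smoke on top of HDM lowered Cxcl13 and Ccl19 (in airway in limma-voom but not in edgeR or DESeq2). By limma-voom, dexamethasone lowered between 2 and 6 of the genes depending on exposure and compartment, where 1.85% to 5.4% of all genes were called lower. edgeR and DESeq2 called 0 without HDM or smoke in parenchyma, and DESeq2 called 1 with HDM and smoke in airway.

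Bulk RNA was sequenced from airway and parenchyma of female Balb/C mice, with an age of 18 to 20 weeks given for every group. At 3 weeks, mice had received intranasal HDM on 5 days per week or phosphate buffered saline (PBS). At 11 weeks, mice given HDM (3 times per week from week 4 on) or PBS had also breathed cigarette smoke (CS, 2 times per day on 5 days per week for 8 weeks) or room air (AIR), and separate groups were given the glucocorticoid dexamethasone (DEX) during week 11. The libraries formed 20 groups of 10, except for 11 airway and 12 parenchyma libraries of the PBS groups at 3 weeks. Airway and parenchyma had been parted by blunt dissection.

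Total counts ranged from 13003087 to 40240680 per library. Levels are given as counts scaled to library size (CPM) with TMM scaling, and a gene was called changed at an adjusted p under 0.05 in limma-voom together with a log2 fold change (log2FC) of at least 1 in size. The compartments differed as labelled: in PBS mice at 3 weeks, the summed CPM of 6 airway epithelial markers had a median of 59030 in airway and 31068 in parenchyma, and that of the alveolar markers 19856 and 30102. Cardiac muscle markers gave 424 and 23.9 CPM. In 12 airway libraries from 8 groups, the summed lymph node markers exceeded 3 times the group median, among them X81 and X161 of the PBS group at 3 weeks and X65 of the PBS.AIR group at 11 weeks. Whether lymph node tissue was dissected with these airways was not tested, and airway results are given with and without them where that matters.

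Organized lymphoid tissue is held together by a few signals. CXCL13, made by follicular stromal cells, draws B cells and follicular helper T cells that carry CXCR5. CCL19 guides mature dendritic cells and naive and central memory T cells that carry CCR7, and CCL20, made largely by epithelium, attracts CCR6-bearing Th17 cells, B cells and dendritic cells. Lymphotoxin alpha and beta form the membrane heterotrimer that engages the lymphotoxin beta receptor on stroma, which keeps up homeostatic chemokine expression through non-canonical NF-κB. In the lung, such genes are known from bronchus-associated lymphoid tissue that forms after inhaled stimuli.

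In the GENCODE M21 annotation of GRCm38 these protein-coding genes lie at chr5:95956951-95961068 (Cxcl13, +), chr9:44511787-44561877 (Cxcr5, −), chr4:42754525-42756577 (Ccl19, −), chr11:99144196-99155077 (Ccr7, −), chr1:83116766-83119167 (Ccl20, +), chr17:8236043-8257141 (Ccr6, +), chr17:35203165-35205351 (Lta, −) and chr17:35194439-35196320 (Ltb, +), with the strand after each symbol. Cxcr5 shares 110 exonic bases with Bcl9l on the opposite strand, and Ccl19 has near-identical copies, so levels of these 2 genes are less certain than those of the rest.

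The promoters of the genes were searched on both strands for the NF-κB motif in its 10-letter consensus form. RefSeq promoter windows (GRCm38.p6, 250 bases before to 50 after each start) were used for Cxcl13, Ccl19, Ccl20, Ccr6 (2 starts), Lta and Ltb. The motif was found in 3 of these 7 windows and in 1480 of all 32851 windows (4.51%). The matched stretches are printed because they belong to a chemokine, a receptor and a lymphotoxin of the set, 5′ to 3′ on the strand of the gene with the matched letters in capitals.
Ccl20, chr1:83116678-83116703, first matched base 80 bases upstream of the start: tcaatgggGGAAAACCCCgggtgaga
Ccr6, chr17:8242438-8242463, first matched base 80 bases upstream of the second start: ttggcttgGGGAATTCCCagataaaa
Ltb, chr17:35194412-35194437, first matched base 87 bases upstream of the start: gggtgttcGGAAAGTCCCcgggcagg
The Ccr6 stretch was matched on both strands and holds a further match 1 base earlier. A match is a description of these letters only. No match was found in the windows of Cxcl13, Ccl19 and Lta or at the first start of Ccr6.

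**Figure D1:**
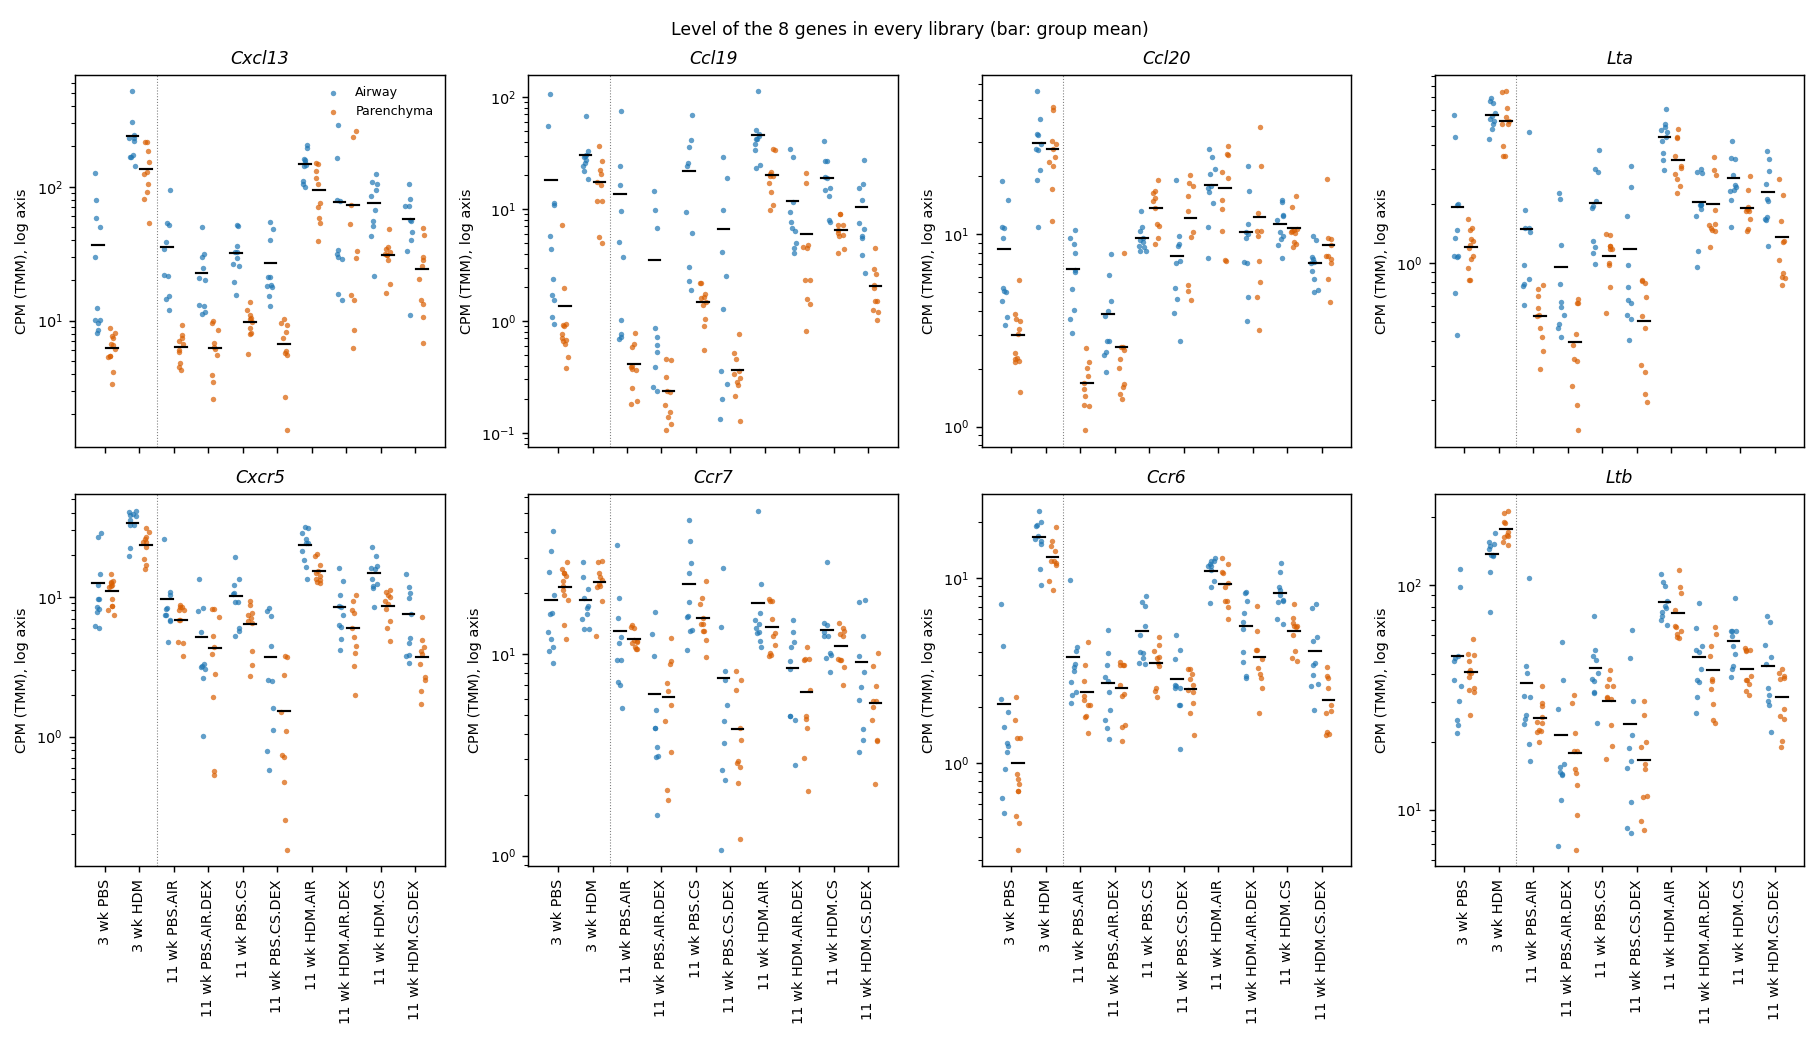
CPM of each gene in every library (log axis), with airway in blue and parenchyma in orange, the exposures at 3 and 11 weeks along the horizontal axis and a black bar at each group mean. Airway libraries of PBS groups spread widely for Ccl19 (0.685 to 74.5 CPM with PBS.AIR), while parenchyma libraries of the same exposure lie close together (0.183 to 0.788).

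The genes differed widely in level. Per kb of exon, the mean level in HDM airways at 3 weeks was 208 CPM for Cxcl13, 90.3 for Ltb, 35.4 for Ccl19, 20.9 for Ccl20, 10.2 for Cxcr5, 9.31 for Ccr7, 7.14 for Ccr6 and 4.08 for Lta. Over the 20 groups, mean CPM spanned 192.5-fold for Ccl19, from 0.239 in PBS.AIR.DEX parenchyma to 46.01 in HDM.AIR airway at 11 weeks. The span was 38.1-fold for Cxcl13, 22.4-fold for Cxcr5, 17.7-fold for Ccl20, 16.6-fold for Ccr6, 14.4-fold for Lta, 10.6-fold for Ltb and 5.33-fold for Ccr7. Except for Ccl19, the highest group mean was that of HDM mice at 3 weeks, in airway for Cxcl13, Cxcr5, Ccl20, Ccr6 and Lta and in parenchyma for Ccr7 and Ltb. With the groups ordered by mean, 16 to 19 of the 19 neighbouring pairs lay closer than the larger of their SDs, so neighbours in that order mostly do not differ beyond their spread.

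The comparison of HDM with PBS asked which of these genes respond to allergen alone. At 3 weeks, 7 of 8 genes were called higher in airway and 7 of 8 in parenchyma, while 12.1% and 14.5% of the 17381 genes tested were called higher there. The median log2FC of the 8 genes was 1.88 in airway and 2.58 in parenchyma, against medians of -0.0675 and -0.13 over all genes. At 11 weeks, 7 of 8 genes were again called higher in each compartment, with 10.6% (airway) and 13% (parenchyma) of 18250 genes called higher. Because whole tissue was measured, more cells of a type and more RNA per cell cannot be told apart in any of these comparisons.

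Cxcl13, the follicular B cell attractant, separated HDM from PBS in both compartments at both times. In airway at 3 weeks it ran from 8.02 to 126.5 CPM (median 12.4) in the 11 PBS libraries and from 141.6 to 514 (median 224) in the 10 HDM libraries. In parenchyma the PBS libraries were at 3.37 to 8.79 (median 6.41) and the HDM libraries at 53.6 to 216 (median 126.5). The groups did not overlap in either compartment, although the highest PBS airway came close to the lowest HDM airway. Cxcl13 rose by a log2FC of 3.24 ± 0.37 (SE) in airway (adjusted p = 2.26e-10) and 4.28 ± 0.50 in parenchyma (adjusted p = 2.68e-10). At 11 weeks, HDM.AIR libraries held 98.9 to 205 CPM in airway and 39.1 to 151.1 in parenchyma, against 12.03 to 93.97 and 4.30 to 9.25 in PBS.AIR. The log2FC was then 2.33 ± 0.37 (adjusted p = 1.56e-08) in airway and 3.86 ± 0.51 (adjusted p = 2.18e-11) in parenchyma.

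Its receptor Cxcr5, which marks B cells and follicular helper T cells, rose as well. In parenchyma at 3 weeks Cxcr5 was at 7.45 to 14.6 CPM (median 11.9) with PBS and 15.97 to 31.1 (median 24.6) with HDM, without overlap. In airway the PBS libraries reached 28.9 CPM and 8 of 10 HDM libraries exceeded them. The log2FC was 1.56 ± 0.19 in airway (adjusted p = 1.79e-09) and 1.04 ± 0.21 in parenchyma (adjusted p = 2.2e-05), and 1.41 ± 0.25 and 1.26 ± 0.28 at 11 weeks (adjusted p = 2.15e-07 and 4.59e-05). The parenchymal rise at 3 weeks sat at the log2FC limit and was 0.997 without the HDM library X164. B cell markers moved with Cxcr5: 4 of 6 were called higher in airway and 2 of 6 in parenchyma at 3 weeks, and 6 and 5 of 6 at 11 weeks. Their summed CPM in airway at 3 weeks was 105.9 to 425 with PBS and 328 to 649 with HDM, and in parenchyma 144.1 to 234 and 248 to 500.0. The part of B cell number in the Cxcr5 values was not tested.

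Ccl19, the ligand of CCR7, started from a very low level in parenchyma. At 11 weeks PBS.AIR parenchyma held 0.183 to 0.788 (median 0.379) CPM, or as few as 4 counts, and HDM.AIR parenchyma 9.79 to 34.2 (median 19.8). Every HDM.AIR library lay above every PBS.AIR library, by 48.5-fold on the group means. The log2FC was 5.62 ± 1.02 (adjusted p = 6.42e-07), and 3.92 ± 0.86 at 3 weeks (adjusted p = 8.44e-05). In airway the PBS groups were wide: at 3 weeks they ran from 0.948 to 106.7 CPM (median 4.43), and no HDM library (18.4 to 67.2, median 28.4) exceeded the highest of them, X81. On the log scale Ccl19 rose by 2.31 ± 0.48 in airway at 3 weeks (adjusted p = 3.7e-05), but the group means differed only 1.68-fold and edgeR's quasi-likelihood test gave 0.70 with an adjusted p of 0.275. At 3 weeks the airway libraries with high lymph node markers were X81 and X161, both PBS and the highest of their group for Ccl19 (106.7 and 54.8 CPM). Without them the limma-voom value was 3.22 (adjusted p = 7.01e-09). No HDM library was left out, so a larger rise followed from the choice. At 11 weeks the airway log2FC was 3.35 ± 0.48 (adjusted p = 6.82e-10).

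Ccr7, carried by mature dendritic cells and naive T cells, was not called in any of the 4 comparisons. At 3 weeks it was at 11.8 to 28.6 (median 22.3) CPM in PBS parenchyma and 12.3 to 28.8 (median 22.6) in HDM parenchyma, so the groups overlapped almost fully. The log2FC was 0.0193 ± 0.20 in parenchyma (95% interval -0.37 to 0.41, adjusted p = 0.932) and 0.086 ± 0.20 in airway (-0.31 to 0.48, adjusted p = 0.71). At 11 weeks it was 0.23 ± 0.28 in parenchyma (-0.33 to 0.78, adjusted p = 0.503) and 0.54 ± 0.27 in airway (0.00876 to 1.07, adjusted p = 0.0753). The sign in airway at 3 weeks was negative with edgeR (-0.0549) and DESeq2 (-0.0232). X81 and X161, the airway libraries with high lymph node markers at 3 weeks, were the highest PBS airways for Ccr7 (40.6 and 32.2 CPM). Without them the limma-voom value was 0.38 (adjusted p = 0.0496), and a higher value followed from leaving out these PBS libraries and no HDM library. At 3 weeks 7 of 7 T cell markers and 5 of 7 dendritic cell markers were called higher in airway, and 7 and 5 in parenchyma. The dendritic cell list (Flt3, Zbtb46, Fscn1, Ccl22, Il4i1, Cd209a and Xcr1) is not confined to mature cells.

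Ccl20, an epithelial chemokine, rose in each of the 4 HDM comparisons. In parenchyma it was at 1.52 to 5.77 CPM (median 2.71) with PBS and 11.7 to 45.9 (median 26.4) with HDM at 3 weeks, and at 0.960 to 2.57 (median 1.63) and 7.24 to 28.7 (median 17.3) at 11 weeks. Neither pair of groups overlapped. Airway libraries started higher, at 3.39 to 18.9 CPM with PBS at 3 weeks, and 9 of 10 HDM airways passed the highest of them. The log2FC at 3 weeks was 1.91 ± 0.27 in airway (adjusted p = 4.45e-08) and 3.10 ± 0.37 in parenchyma (adjusted p = 5.98e-10). At 11 weeks it was 1.51 ± 0.26 (adjusted p = 1.66e-07) and 3.33 ± 0.38 (adjusted p = 6.96e-14). Airway epithelial markers were lower in sum with HDM. Their summed CPM in airway at 3 weeks was 29848 to 89260 (median 59030) with PBS and 14101 to 28863 (median 20844) with HDM, and in parenchyma 21450 to 51670 and 10464 to 18859, without overlap in either. At 11 weeks the sums were 42468 to 62946 and 9615 to 28932 in airway and, with overlap, 17020 to 30540 and 11080 to 25038 in parenchyma. Of these 6 markers, 3 were called lower in airway and 3 in parenchyma at 3 weeks, 3 and 1 at 11 weeks, and 1 was called higher in parenchyma at each time. Macrophage markers were higher in sum: their median sum was 183.9 CPM with PBS and 471 with HDM in airway at 3 weeks and 198.7 and 658 in parenchyma, and 2 of 4 were called higher in each of the 4 comparisons, with 1 called lower in airway at 3 weeks. Their part in the HDM results of Ccl20 and the other genes was not tested.

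Ccr6, the receptor of CCL20, was among the genes that separated the groups in both compartments at 3 weeks. PBS libraries held 0.540 to 7.24 CPM (median 1.29) in airway and 0.343 to 2.29 (median 0.795) in parenchyma, and HDM libraries 9.15 to 22.9 (median 16.5) and 8.55 to 18.9 (median 12.3). No PBS library reached an HDM library in either compartment. Ccr6 rose by 3.29 ± 0.27 in airway (adjusted p = 2.15e-14) and 3.74 ± 0.34 in parenchyma (adjusted p = 3.11e-13). At 11 weeks the values were 1.70 ± 0.19 (adjusted p = 9.62e-15) and 2.01 ± 0.22 (adjusted p = 2.15e-15). Of 5 tested genes of Th17 and innate lymphoid cells, which also carry CCR6, 2 were called higher in airway and 3 in parenchyma at 3 weeks, and 3 and 3 at 11 weeks. Il17a, the signature Th17 cytokine, was at 11.9 ± 4.13 CPM (SD, n = 10) in HDM airways and 1.03 ± 1.501 (n = 11) in PBS airways at 3 weeks, a log2FC of 4.06 ± 0.42, and Il17f rose by 1.92 ± 0.40. In parenchyma at 3 weeks Il17a rose by 4.82 ± 0.47 and Il17f by 3.26 ± 0.43. At 11 weeks Il17a rose by 7.64 ± 0.79 in airway and 6.65 ± 0.66 in parenchyma, from 0.136 ± 0.211 and 0.410 ± 0.761 CPM, and Il17f by 5.03 ± 0.67 and 5.92 ± 0.73.

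Both lymphotoxins rose. Ltb, the membrane anchor of the heterotrimer, was at 26.4 to 57.1 (median 40.9) CPM in PBS parenchyma and 150.4 to 213 (median 169.3) in HDM parenchyma at 3 weeks. Lta, the secreted subunit, was at 0.818 to 1.68 (median 1.21) and 3.49 to 7.47 (median 5.20). Neither gene overlapped between the groups in parenchyma at 3 or 11 weeks, whereas in airway 4 of 10 HDM libraries passed all PBS libraries for Lta at 3 weeks and 8 of 10 did for Ltb. Lta rose by 1.85 ± 0.23 in airway and 2.04 ± 0.26 in parenchyma at 3 weeks (adjusted p = 1.92e-09 and 2.79e-09), and Ltb by 1.66 ± 0.20 and 2.07 ± 0.20 (adjusted p = 8.06e-10 and 1.73e-12). At 11 weeks Lta rose by 1.82 ± 0.23 and 2.69 ± 0.30 (adjusted p = 3.59e-12 and 9.09e-15), and Ltb by 1.42 ± 0.23 and 1.60 ± 0.24 (adjusted p = 4.36e-08 and 2.65e-09).

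**Figure D2:**
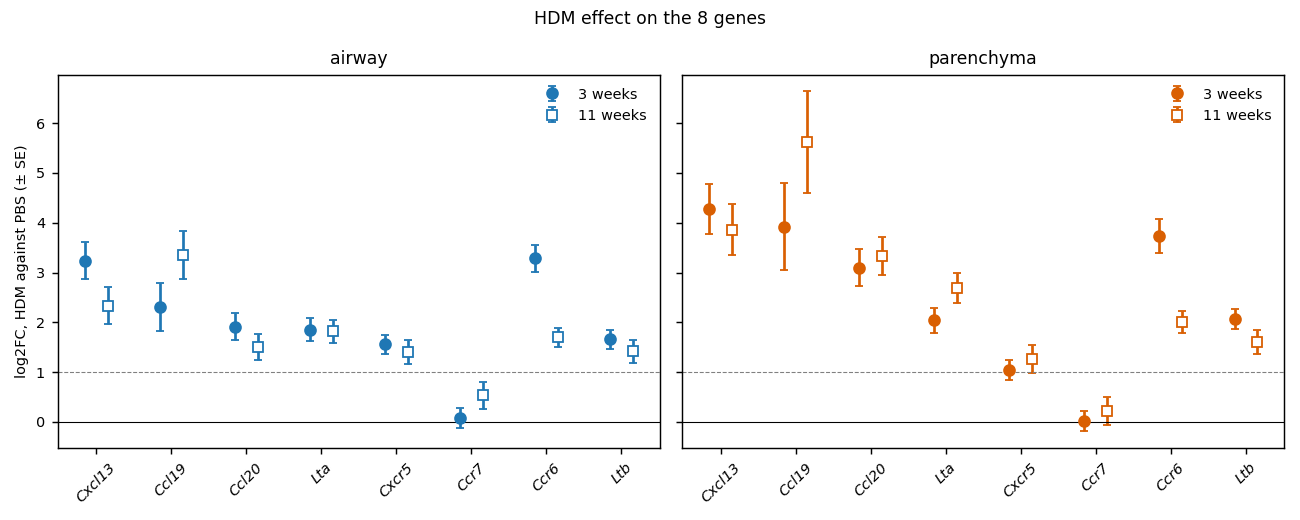
log2FC of each gene with HDM against PBS, with SE bars, in airway (left) and parenchyma (right) at 3 weeks (filled circles) and 11 weeks (open squares), with a dashed line at a log2FC of 1. Ccr7 lies below the line in all 4 comparisons, and Ccr6 lies at 3.74 at 3 weeks and 2.01 at 11 weeks in parenchyma.

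Of the other genes in these pathways, those of lymphotoxin and TNF signalling were called in 1 direction under HDM. Among 15 ligands, receptors and non-canonical NF-κB genes, 9 were called higher in airway and 10 in parenchyma at 3 weeks, and 7 and 7 at 11 weeks, with median log2FC of 1.18, 1.52, 0.91 and 0.95 (all genes at 11 weeks: 0.00369 and 0.0471). None was called lower by limma-voom, edgeR or DESeq2 (0, 1, 1 and 0 were lower at an unadjusted limma-voom p under 0.05), where 11.8% and 15.1% of all genes were at 3 weeks and 8.54% and 6.12% at 11 weeks. Tnf, encoding the related cytokine, rose by 3.01 ± 0.25 in airway and 3.99 ± 0.28 in parenchyma at 3 weeks, and Tnfrsf1b, one of its receptors, by 2.34 ± 0.15 and 3.06 ± 0.15. At 11 weeks Tnf rose by 2.09 ± 0.27 and 3.16 ± 0.31, Tnfrsf1b by 2.01 ± 0.10 in airway and Tnfsf11 (RANKL) by 2.84 ± 0.43 in parenchyma. Among 9 germinal centre and follicular helper genes, 7 (airway) and 8 (parenchyma) were called higher at 3 weeks and 6 and 6 at 11 weeks, with median log2FC of 2.21, 2.28, 2.18 and 2.29. Il21, the follicular helper cytokine, rose by 6.18 ± 0.45 and 6.94 ± 0.50 at 3 weeks, and by 5.15 ± 0.50 and 5.58 ± 0.61 at 11 weeks.

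The lymphoid stroma and vessel genes responded in part. Of 11 tested, 3 (airway) and 4 (parenchyma) were called higher at 3 weeks and 4 and 6 at 11 weeks, with median log2FC of 0.72, 0.90, 0.86 and 1.15. Cr2, a complement receptor of B cells and follicular dendritic cells, was at 27.3 ± 27.1 CPM with PBS and 72.7 ± 21.6 with HDM in airway at 3 weeks, a log2FC of 1.72 ± 0.26. At 11 weeks it rose by 1.77 ± 0.29 and 1.90 ± 0.35. Fcer2a, the low-affinity IgE receptor, rose by 1.65 ± 0.23 in parenchyma at 3 weeks. Madcam1, an addressin of lymphoid vessels, was called higher in all 4 comparisons but at very low level, for example 0.0148 ± 0.0219 against 0.544 ± 0.310 CPM in parenchyma at 3 weeks. The other homing genes split: 3 of 10 were called higher and 3 lower in each of the 4 comparisons, with median log2FC of 0.46, 0.48, 0.63 and 0.14. Ch25h, which makes the precursor of the oxysterol that guides GPR183-bearing cells, rose by 2.55 ± 0.25 and 3.42 ± 0.27 at 3 weeks and by 3.24 ± 0.27 and 3.27 ± 0.27 at 11 weeks. Cyp7b1, the next enzyme of that pathway, rose by 1.44 ± 0.17 in airway at 11 weeks. Ackr4, a scavenger of CCL19 and CCL21, fell by 1.79 ± 0.20 and 3.23 ± 0.22 on the log2 scale at 3 weeks and by 2.11 ± 0.22 in parenchyma at 11 weeks.

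Whether the HDM effect differed between 3 and 11 weeks was tested gene by gene, over libraries that differ in week and were fitted together. The HDM schedule also differed (5 days per week at 3 weeks, and 3 times per week from week 4 on in the 11-week mice). The 11-week groups had in addition breathed room air. Duration, schedule, season and handling therefore cannot be told apart in this comparison. Of the 8 genes, Ccr6 passed in both compartments, with an 11-week effect lower than the 3-week effect by 1.65 ± 0.30 in airway (adjusted p = 6.8e-06) and 1.85 ± 0.37 in parenchyma (adjusted p = 1.18e-05). In these tests 3.03% and 4.06% of 18528 genes were called lower. The mean of Ccr6 in PBS libraries was 2.09 CPM at 3 weeks and 3.75 at 11 weeks in airway and 0.998 and 2.43 in parenchyma, and the mean in HDM libraries was 16.6 and 10.9 in airway and 12.98 and 9.24 in parenchyma. So the level was higher at 11 weeks in PBS libraries and lower in HDM libraries. The other 7 genes were not called. In airway their differences were Cxcl13 at -0.96 ± 0.53 (adjusted p = 0.167), Cxcr5 at -0.21 ± 0.32 (adjusted p = 0.674), Ccl19 at 1.00 ± 0.67 (adjusted p = 0.272), Ccr7 at 0.40 ± 0.35 (adjusted p = 0.418), Ccl20 at -0.46 ± 0.37 (adjusted p = 0.367), Lta at -0.0839 ± 0.32 (adjusted p = 0.872) and Ltb at -0.30 ± 0.32 (adjusted p = 0.509). In parenchyma they were Cxcl13 at -0.54 ± 0.72 (adjusted p = 0.574), Cxcr5 at 0.0893 ± 0.36 (adjusted p = 0.868), Ccl19 at 1.57 ± 1.32 (adjusted p = 0.351), Ccr7 at 0.0811 ± 0.36 (adjusted p = 0.879), Ccl20 at 0.10 ± 0.52 (adjusted p = 0.896), Lta at 0.53 ± 0.39 (adjusted p = 0.275) and Ltb at -0.60 ± 0.32 (adjusted p = 0.129). DESeq2 also called the difference of Ccl19 in parenchyma (1.92, adjusted p = 0.0403).

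The compartments differed without any HDM. In PBS libraries at 3 weeks, 3 of 8 genes were called higher in airway than in parenchyma (10% of all genes were), namely Ccl19 by 2.64 ± 0.90 (adjusted p = 0.0122), Cxcl13 by 1.92 ± 0.50 (adjusted p = 0.00114) and Ccl20 by 1.33 ± 0.40 (adjusted p = 0.00464). At 11 weeks, 4 of 8 were called higher in PBS.AIR airway, with 13.4% of all genes: Ccl19 by 3.43 ± 1.08, Cxcl13 by 2.26 ± 0.51, Ccl20 by 1.92 ± 0.41 and Lta by 1.27 ± 0.32 (adjusted p = 0.00407, 6.74e-05, 2.41e-05 and 0.000392). Cxcl13 and Ccl20 were higher in 10 of 10 airways than in any parenchyma at 11 weeks. Without the airway libraries with high lymph node markers, the 3-week differences of Ccl19, Cxcl13 and Ccl20 were 1.79, 1.48 and 1.07 and were still called. The receptors and Ltb were not called different between the compartments at either time. At 3 weeks they were, with Lta, Cxcr5 at 0.0435 ± 0.22 (adjusted p = 0.879), Ccr7 at -0.31 ± 0.20 (adjusted p = 0.175), Ccr6 at 0.83 ± 0.40 (adjusted p = 0.0706), Lta at 0.36 ± 0.29 (adjusted p = 0.294) and Ltb at 0.0661 ± 0.19 (adjusted p = 0.783). At 11 weeks they were Cxcr5 at 0.44 ± 0.30 (adjusted p = 0.212), Ccr7 at -0.027 ± 0.29 (adjusted p = 0.946), Ccr6 at 0.58 ± 0.24 (adjusted p = 0.0324) and Ltb at 0.37 ± 0.24 (adjusted p = 0.194). Airway and parenchyma libraries were fitted as independent samples in these tests and in those of the next comparison, since the labels do not say which come from 1 mouse.

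The rise with HDM was also tested for a difference between compartments. At 3 weeks none of the 8 genes was called by limma-voom, and Ccl20 was the 1 gene with an unadjusted p under 0.05 (1.67% of genes were called lower in airway). The differences were Cxcl13 at -1.03 ± 0.62 (adjusted p = 0.253), Cxcr5 at 0.52 ± 0.28 (adjusted p = 0.211), Ccl19 at -1.62 ± 0.99 (adjusted p = 0.266), Ccr7 at 0.0667 ± 0.28 (adjusted p = 0.899), Ccr6 at -0.45 ± 0.43 (adjusted p = 0.502), Lta at -0.19 ± 0.35 (adjusted p = 0.753) and Ltb at -0.41 ± 0.28 (adjusted p = 0.326). The Ccl20 difference of -1.19 ± 0.46 had an adjusted p of 0.0659. It passed when any of X4 (-1.32, adjusted p = 0.0295), X63 (-1.36, adjusted p = 0.0304), X121 (-1.28, adjusted p = 0.0487) or X201 (-1.30, adjusted p = 0.0396) was left out. edgeR called Cxcl13 (-1.69), Ccl19 (-2.92) and Ccl20 (-1.35) at adjusted p of 0.0214, 0.0163 and 0.0121, and DESeq2 called the same 3. At 11 weeks Ccl20 rose less in airway than in parenchyma by 1.81 ± 0.46 (adjusted p = 0.00156), with 7.46% of genes called lower. The other genes were Cxcl13 at -1.53 ± 0.63 (adjusted p = 0.0562), Cxcr5 at 0.15 ± 0.37 (adjusted p = 0.805), Ccl19 at -2.26 ± 1.13 (adjusted p = 0.124), Ccr7 at 0.31 ± 0.39 (adjusted p = 0.596), Ccr6 at -0.32 ± 0.29 (adjusted p = 0.443), Lta at -0.87 ± 0.38 (adjusted p = 0.069) and Ltb at -0.18 ± 0.33 (adjusted p = 0.725). edgeR and DESeq2 called 4 genes there, adding Cxcl13, Ccl19 and Lta.

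Smoke was compared with air in PBS-treated mice to ask what it does without allergen. The PBS.AIR libraries are the same as in the HDM comparison at 11 weeks, and the HDM.AIR libraries are shared by the comparisons of smoke and of dexamethasone in HDM mice. In airway 1 of 8 genes was called higher (1.73% of all genes) and in parenchyma 2 of 8 (4.21%), and limma-voom called none lower (1.06% and 1.12% of all genes), the 1 negative value being that of Cxcr5 in parenchyma (-0.14 ± 0.33, unadjusted p = 0.677). Ccl20 in parenchyma was at 0.960 to 2.57 (median 1.63) CPM in PBS.AIR and 8.91 to 19.1 (median 14.3) in PBS.CS. The groups did not overlap, and the log2FC was 3.03 ± 0.39 (adjusted p = 5.33e-11). In airway Ccl20 was at 3.08 to 10.6 CPM in PBS.AIR and 8.16 to 13.2 in PBS.CS, a log2FC of 0.65 ± 0.28 (adjusted p = 0.109). Lta rose in parenchyma by 1.03 ± 0.33 (adjusted p = 0.0102), with 8 of 10 PBS.CS libraries above all PBS.AIR libraries.

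Ccl19 in airway was called at 1.496 ± 0.52 with smoke alone (adjusted p = 0.037), but its levels ran from 0.685 to 74.5 CPM in PBS.AIR and from 1.89 to 69.4 in PBS.CS. That call was lost with edgeR (0.68, adjusted p = 0.471), with DESeq2, without a filter on low counts and with airway libraries alone. In parenchyma Ccl19 was at 0.183 to 0.788 CPM in PBS.AIR and 0.554 to 2.20 in PBS.CS, and 9 of 10 smoked libraries exceeded all PBS.AIR libraries. Its log2FC of 1.81 ± 1.18 was not called in the fit of both compartments (adjusted p = 0.236) and was called with parenchyma alone (adjusted p = 0.00813) and with edgeR and DESeq2. The remaining genes were not called with smoke alone. In airway they were Cxcl13 at 0.0443 ± 0.37 (adjusted p = 0.964), Cxcr5 at 0.11 ± 0.27 (adjusted p = 0.858), Ccr7 at 0.81 ± 0.26 (adjusted p = 0.0225), Ccr6 at 0.54 ± 0.21 (adjusted p = 0.0677), Lta at 0.57 ± 0.25 (adjusted p = 0.122) and Ltb at 0.36 ± 0.23 (adjusted p = 0.342). In parenchyma they were Cxcl13 at 0.63 ± 0.58 (adjusted p = 0.426), Ccr7 at 0.31 ± 0.28 (adjusted p = 0.414), Ccr6 at 0.56 ± 0.24 (adjusted p = 0.0616) and Ltb at 0.24 ± 0.25 (adjusted p = 0.494).

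Among the pathway lists, smoke alone raised Tnf by 1.08 ± 0.29 in airway and by 2.53 ± 0.32 in parenchyma, where Tnfrsf11a (RANK) also rose by 1.22 ± 0.10. These were 1 and 2 of 15 lymphotoxin and TNF genes, whose median log2FC was 0.37 and 0.71 (all genes 0.00208 and 0.000226). Ch25h rose by 2.35 ± 0.28 and 3.54 ± 0.27 and Cyp7b1 by 1.15 ± 0.20 in parenchyma, which made 1 and 2 of 10 homing genes. Of 5 Th17 and innate lymphoid genes, 1 was called lower in airway and 1 in parenchyma. Fcer2a in parenchyma (1.77 ± 0.29) was called among 11 stroma and vessel genes and Pdcd1 in airway (1.07 ± 0.33) among 9 germinal centre genes.

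Adding smoke to HDM lowered 2 of the 8 genes in each compartment, Cxcl13 and Ccl19, where 1.97% (airway) and 3.46% (parenchyma) of all genes were called lower. In parenchyma Cxcl13 was at 39.1 to 151.1 (median 90.3) CPM in HDM.AIR and 16.1 to 48.6 (median 31.2) in HDM.CS, with 9 of 10 HDM.CS libraries below all HDM.AIR libraries. It fell by 1.58 ± 0.37 on the log2 scale (adjusted p = 0.000417). Ccl19 was there at 9.79 to 34.2 (median 19.8) and 4.07 to 8.98 (median 6.31) without overlap, and fell by 1.59 ± 0.46 (adjusted p = 0.0059). In airway Cxcl13 fell by 1.11 ± 0.36 (adjusted p = 0.0222) and Ccl19 by 1.35 ± 0.34 (adjusted p = 0.00243), with 7 and 7 of 10 HDM.CS libraries below all HDM.AIR libraries. edgeR gave -0.99 and -1.28 for these 2 in airway, with adjusted p of 0.0621 and 0.0993.

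The other genes were lower by less than the log2FC limit. In parenchyma Cxcr5, Ccr6, Lta and Ltb had log2FC of -0.86, -0.84, -0.81 and -0.84 with adjusted p of 0.00917, 0.000103, 0.00292 and 0.00322. Cxcr5 and Ltb were lower in 10 of 10 HDM.CS libraries than in any HDM.AIR library. In airway the values were -0.70, -0.45, -0.75 and -0.62 (adjusted p = 0.0167, 0.027, 0.00247 and 0.045). Ccl20 had -0.60 ± 0.24 in parenchyma (adjusted p = 0.0515) and -0.64 ± 0.23 in airway (adjusted p = 0.0368). Ccr7 had -0.33 ± 0.28 in parenchyma (adjusted p = 0.441) and -0.41 ± 0.26 in airway (adjusted p = 0.313). Summed B cell markers had a median of 415 CPM in HDM.AIR and 246 in HDM.CS airways, and 288 and 153.5 in parenchyma, where 3 of 6 were called lower. Their part in the lower values was not tested.

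Few genes of the related lists were called when smoke was added to HDM. None of the 10 homing genes was called by limma-voom, edgeR or DESeq2, with an unadjusted limma-voom p under 0.05 for 3 in airway and 6 in parenchyma. Tnfsf11 in parenchyma (-1.31 ± 0.34) was the 1 call of limma-voom among lymphotoxin and TNF genes, of which 9 in airway had an unadjusted p under 0.05. Of 9 germinal centre genes, 1 was called lower in airway and 4 in parenchyma, where Il21 fell by 1.70 ± 0.33. Madcam1 fell in both compartments (from 0.886 to 0.212 CPM and from 0.410 to 0.0544). Cr2, which B cells also carry, fell in parenchyma by 1.21 ± 0.31. These were 1 and 2 of the 11 genes on the stroma and vessel list. Il17f rose by 2.17 ± 0.27 and 2.19 ± 0.25, and 1 of 5 Th17 genes was called in each direction in each compartment (0.674% of all genes were called higher in airway and 0.899% in parenchyma).

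The interaction term asked whether the effects of HDM and smoke added up on the log scale. It was negative for all 8 genes in both compartments. In parenchyma 6 of 8 were called lower than additive (7.11% of all genes), led by Ccl20 at -3.63 ± 0.45 (adjusted p = 3.16e-11), Ccl19 at -3.40 ± 1.27 (adjusted p = 0.0264) and Cxcl13 at -2.20 ± 0.68 (adjusted p = 0.00647). The other 3 were Lta, Ccr6 and Ltb at -1.84, -1.40 and -1.07 (adjusted p = 8.19e-05, 6.77e-05 and 0.00739), while the term was not called for Cxcr5 at -0.72 ± 0.42 (adjusted p = 0.175) and Ccr7 at -0.64 ± 0.40 (adjusted p = 0.211). For Ccl20, the HDM group mean was 10.4 times the PBS group mean in air and 0.789 times in smoke. The corresponding ratios were 48.5 and 4.42 for Ccl19, 14.9 and 3.14 for Cxcl13, and 6.21 and 1.76 for Lta. In airway 4 of 8 were called (3.5% of all genes), namely Ccl19 at -2.84 ± 0.62, Lta at -1.33 ± 0.32, Ccl20 at -1.29 ± 0.36 and Ccr7 at -1.21 ± 0.37 (adjusted p = 0.000344, 0.00103, 0.00518 and 0.0117). The genes not called there were Cxcl13 at -1.15 ± 0.52 (adjusted p = 0.105), Cxcr5 at -0.81 ± 0.35 (adjusted p = 0.09), Ccr6 at -0.99 ± 0.26 (adjusted p = 0.00266) and Ltb at -0.98 ± 0.33 (adjusted p = 0.0218). Without the airway libraries with high lymph node markers 8 of 8 were called in airway. That left out X65 (PBS.AIR), X89 (HDM.AIR) and X157 (HDM.CS) but no PBS.CS library. The cutoff followed the group median, which was highest in PBS.CS (266.6 CPM). So X193 (PBS.CS) stayed with 649.6 CPM of these markers, while X157 was left out at 505.2. These 8 calls therefore rest on groups trimmed unevenly.

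**Figure D3:**
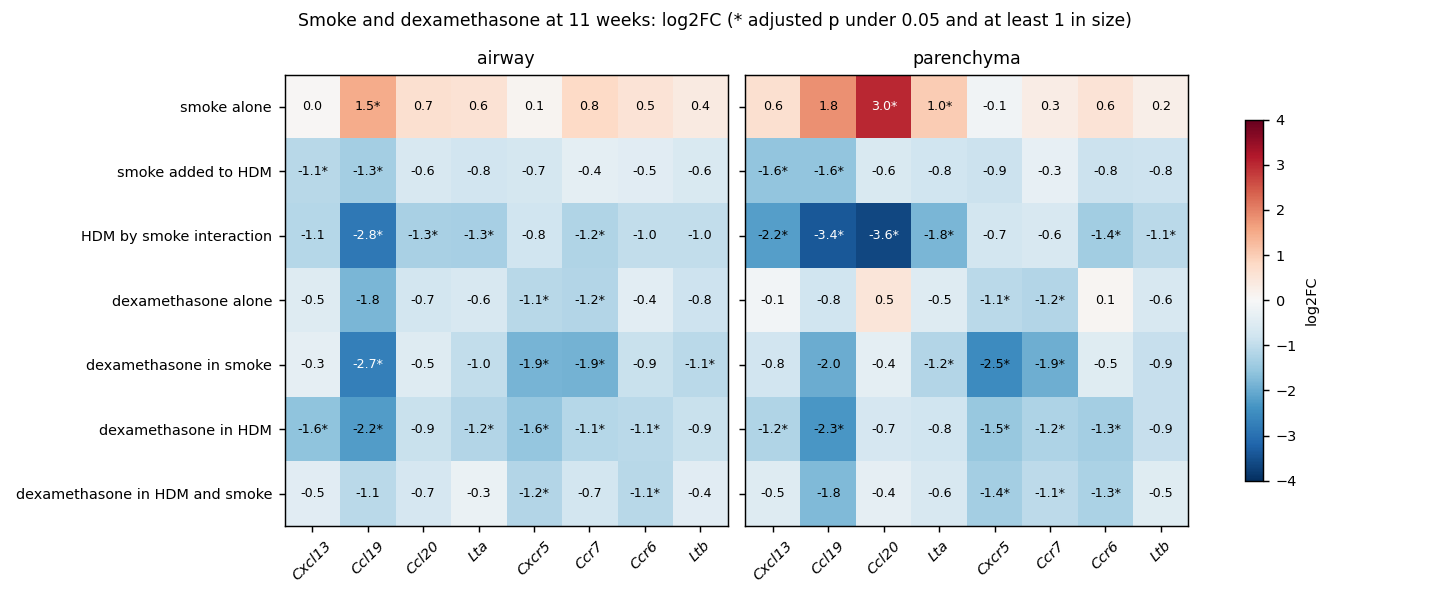
log2FC of each gene (columns) for smoke, the HDM by smoke interaction and dexamethasone at 11 weeks (rows), in airway (left) and parenchyma (right), with blue for lower and red for higher values and a star on calls. All dexamethasone values but those of Ccl20 and Ccr6 without HDM or smoke in parenchyma are negative, and the darkest red is Ccl20 with smoke alone in parenchyma (3.03).

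Dexamethasone was compared with no dexamethasone in each exposure. In HDM mice, 6 of 8 genes were called lower in airway and 5 of 8 in parenchyma, where 5.07% and 5.4% of all genes were called lower and 0.789% and 0.619% higher. All 8 had an adjusted p under 0.05 in limma-voom and a negative log2FC in both compartments. The median over the 8 genes was -1.15 and -1.22, against 0.00466 and 0.00603 over all genes.

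Cxcl13 was at 98.9 to 205 (median 149.6) CPM in HDM.AIR airways and 14.3 to 289 (median 32.5) with dexamethasone. In parenchyma it was at 39.1 to 151.1 (median 90.3) and 6.26 to 259 (median 31.4). Most dexamethasone libraries lay below the lowest untreated one (8 of 10 in airway, 6 of 10 in parenchyma), but X11 (164.97 CPM) and X131 (289) in airway and X12 (236) and X132 (259) in parenchyma were high. The log2FC was -1.61 ± 0.36 in airway (adjusted p = 0.000188) and -1.21 ± 0.37 in parenchyma (adjusted p = 0.00669). The ratio of the means was only 1.93 and 1.30, and edgeR gave -0.96 (adjusted p = 0.0424) and -0.39 (adjusted p = 0.463). Without those 4 libraries, left out after their values were seen, limma-voom gave -2.14 and -1.91 and called all 8 genes in both compartments. They were the treated libraries with the highest Cxcl13, so a larger fall of Cxcl13 followed from the choice.

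Ccl19 fell by 2.23 ± 0.40 in airway (adjusted p = 2.66e-06) and 2.33 ± 0.55 in parenchyma (adjusted p = 0.00045), from medians of 42.4 and 19.8 CPM to 7.22 and 3.40. Ccl20 had log2FC of -0.90 ± 0.24 (adjusted p = 0.00184) and -0.66 ± 0.25 (adjusted p = 0.0334), with medians of 17.6 and 17.3 CPM without and 9.79 and 10.1 with dexamethasone. All 3 receptors fell in both compartments. Cxcr5 fell by 1.55 ± 0.25 and 1.52 ± 0.30 (adjusted p = 2.47e-07 and 2.27e-05), with 12.6 to 20.2 CPM untreated and 2.00 to 10.3 treated in parenchyma and no overlap there. Ccr7 fell by 1.13 ± 0.30 and 1.22 ± 0.34 (adjusted p = 0.00168 and 0.00263), and Ccr6 by 1.08 ± 0.17 and 1.35 ± 0.20 (adjusted p = 1.22e-07 and 1.31e-08).

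Lta fell by 1.17 ± 0.21 in airway (adjusted p = 2.3e-06) and was at -0.80 ± 0.23 in parenchyma (adjusted p = 0.00338), and Ltb was at -0.89 ± 0.23 and -0.92 ± 0.23 (adjusted p = 0.00115 and 0.00107). Of the B cell markers 5 of 6 were called lower in airway and 5 of 6 in parenchyma, and of the T cell markers 3 and 3 of 7. The summed B cell markers were at 280.3 to 557 CPM without and 103.8 to 307 with dexamethasone in airway, and at 215 to 423 and 73.4 to 214 in parenchyma. Their part in the lower Cxcr5, Ccr7, Lta and Ltb values was not tested.

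Other genes of the pathways responded unevenly to dexamethasone in HDM mice. Of 15 lymphotoxin and TNF genes, limma-voom called 1 in parenchyma, Tnfsf11 at -1.05 ± 0.33, and none in airway, where 12 had an unadjusted p under 0.05. Of 10 homing genes none was called by limma-voom, edgeR or DESeq2, with an unadjusted limma-voom p under 0.05 for 4 in airway and 5 in parenchyma. The median log2FC of these lists was -0.23 and -0.24 in airway and -0.23 and -0.34 in parenchyma. Of 9 germinal centre genes, 4 and 5 were called lower, among them Tnfrsf13c, the BAFF receptor of B cells (-1.69 ± 0.22 and -1.62 ± 0.27). Of the 11 genes on the stroma and vessel list, 3 and 3 were called lower. They were led by Cr2 (-2.42 ± 0.32 and -2.38 ± 0.39), which B cells also carry, and Madcam1 (from 0.886 to 0.152 CPM and from 0.410 to 0.0928). The part of B cell number in the Cr2 values was not tested. Among 5 Th17 genes, Il17f in parenchyma was the 1 call of limma-voom, at -1.20 ± 0.37, and 4 had an unadjusted p under 0.05 in airway, where edgeR called 1.

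Without HDM or smoke, dexamethasone lowered Cxcr5 and Ccr7, 2 of 8 genes in airway (1.85% of all genes) and 2 of 8 in parenchyma (2.14%). Ccr7 fell by 1.17 ± 0.33 in airway and 1.16 ± 0.34 in parenchyma (adjusted p = 0.00736 and 0.00722), and Cxcr5 by 1.10 ± 0.32 and 1.08 ± 0.37 (adjusted p = 0.00989 and 0.0234). In airway edgeR and DESeq2 called Ccr7 and Ccl19 and not Cxcr5. In parenchyma edgeR gave -0.95 for Ccr7 (adjusted p = 0.0254) and -0.67 for Cxcr5 (adjusted p = 0.144) and called neither. Cxcl13 in parenchyma was at 4.30 to 9.25 CPM without and 2.58 to 9.97 with dexamethasone, a log2FC of -0.10 ± 0.63 (adjusted p = 0.937). Ccr6 and Ccl20 in parenchyma had positive values that were not called. In airway limma-voom gave Cxcl13 at -0.52 ± 0.38 (adjusted p = 0.398), Ccl19 at -1.83 ± 0.78 (adjusted p = 0.0993), Ccl20 at -0.74 ± 0.33 (adjusted p = 0.119), Ccr6 at -0.43 ± 0.23 (adjusted p = 0.204), Lta at -0.63 ± 0.29 (adjusted p = 0.129) and Ltb at -0.82 ± 0.25 (adjusted p = 0.0138). In parenchyma it gave Ccl19 at -0.79 ± 1.51 (adjusted p = 0.772), Ccl20 at 0.47 ± 0.47 (adjusted p = 0.525), Ccr6 at 0.074 ± 0.26 (adjusted p = 0.884), Lta at -0.50 ± 0.39 (adjusted p = 0.394) and Ltb at -0.63 ± 0.27 (adjusted p = 0.0745). Of the B cell markers 5 of 6 were called lower in airway and 4 of 6 in parenchyma by limma-voom, and edgeR called 0 and 0.

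In smoke-exposed mice, dexamethasone lowered 4 of 8 genes in airway (2.29% of all genes) and 3 of 8 in parenchyma (2.39%) by limma-voom. By contrast, edgeR and DESeq2 each called 3 in airway and 4 in parenchyma. Cxcr5 and Ccr7 fell by 1.85 ± 0.36 and 1.88 ± 0.31 in airway (adjusted p = 5.63e-05 and 2.65e-06) and by 2.53 ± 0.49 and 1.95 ± 0.36 in parenchyma (adjusted p = 4.54e-05 and 1.88e-05). Ccr7 in parenchyma was at 9.67 to 22.95 CPM in PBS.CS and 1.21 to 8.20 in PBS.CS.DEX, without overlap. Ccl19 and Ltb fell in airway by 2.73 ± 0.65 and 1.07 ± 0.25 (adjusted p = 0.00141 and 0.000864), and Lta in parenchyma by 1.18 ± 0.34 (adjusted p = 0.00788). Ccl20, which smoke had raised in parenchyma, was at 8.91 to 19.1 (median 14.3) CPM without and 4.56 to 20.4 (median 11.7) with dexamethasone, a log2FC of -0.38 ± 0.24 (95% interval -0.86 to 0.092, adjusted p = 0.294). The rest were negative and not called by limma-voom, in airway Cxcl13 at -0.34 ± 0.38 (adjusted p = 0.629), Ccl20 at -0.51 ± 0.27 (adjusted p = 0.239), Ccr6 at -0.89 ± 0.22 (adjusted p = 0.00188) and Lta at -0.98 ± 0.27 (adjusted p = 0.00644). In parenchyma these were Cxcl13 at -0.78 ± 0.58 (adjusted p = 0.387), Ccl19 at -1.98 ± 1.198 (adjusted p = 0.27), Ccr6 at -0.48 ± 0.24 (adjusted p = 0.16) and Ltb at -0.93 ± 0.26 (adjusted p = 0.0074). Of the B cell markers 6 of 6 were called lower in airway and 6 of 6 in parenchyma, and of the T cell markers 7 and 7 of 7.

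In mice given both HDM and smoke, dexamethasone lowered 2 of 8 genes in airway (1.93% of all genes) and 3 of 8 in parenchyma (1.92%). Ccr6 fell by 1.11 ± 0.19 in airway and 1.27 ± 0.23 in parenchyma (adjusted p = 3.05e-06 and 4.06e-05), with 10 of 10 treated parenchymas, at 1.42 to 3.32 CPM, below the untreated ones at 3.56 to 7.26. Cxcr5 fell by 1.16 ± 0.27 and 1.35 ± 0.35 (adjusted p = 0.0013 and 0.00584), and Ccr7 in parenchyma by 1.05 ± 0.34 (adjusted p = 0.0376). Without the airway libraries with high lymph node markers, Ccl19 (-1.45) and Ccr7 (-1.06) were called in airway too. That left out X157 without dexamethasone and X39, X59 and X179 with it. The treated ones were the highest of their group for both genes. Cxcl13 was not called, at -0.46 ± 0.35 in airway (95% interval -1.15 to 0.23, adjusted p = 0.515) and -0.51 ± 0.39 in parenchyma (-1.27 to 0.26, adjusted p = 0.539). Nor were the remaining genes in airway, with Ccl19 at -1.06 ± 0.43 (adjusted p = 0.106), Ccr7 at -0.73 ± 0.30 (adjusted p = 0.11), Ccl20 at -0.67 ± 0.26 (adjusted p = 0.0981), Lta at -0.28 ± 0.21 (adjusted p = 0.507) and Ltb at -0.44 ± 0.23 (adjusted p = 0.253). In parenchyma the remaining genes were Ccl19 at -1.77 ± 0.70 (adjusted p = 0.109), Ccl20 at -0.37 ± 0.27 (adjusted p = 0.489), Lta at -0.64 ± 0.26 (adjusted p = 0.122) and Ltb at -0.48 ± 0.24 (adjusted p = 0.24). Whether the dexamethasone response of any gene differed between these exposures was not tested.

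Covariation beyond the exposures was examined over single libraries, with the group mean removed from log2(CPM + 0.1), in 28 gene pairs per compartment. Pearson's r passed an adjusted p of 0.05 (permutation within groups, two-sided, adjusted over 56 pairs) in 22 of 28 pairs over all airway libraries and in 13 of 28 over all parenchyma libraries. The share among pairs of all genes was not computed, so these counts cannot be called particular to the set. In both compartments Cxcr5, Ltb, Ccr7 and Lta varied together. Cxcr5 and Ltb had r = 0.92 (rho 0.89, r without the 2 farthest libraries 0.91) in airway and r = 0.84 (rho 0.79, r without the 2 farthest libraries 0.81) in parenchyma. Cxcr5 and Ccr7 had r = 0.87 (rho 0.85, r without the 2 farthest libraries 0.87) in airway and r = 0.81 (rho 0.74, r without the 2 farthest libraries 0.78) in parenchyma. The permutation p of r was 1e-05 for each of these 4, the smallest that 100000 permutations can give, and 2.1e-05 after adjustment (2.2e-05 for rho).

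Cxcl13, Ccl19 and Ccl20 were also correlated with other genes of the set in both compartments. In airway Ccl19 and Lta had r = 0.88 (rho 0.87, r without the 2 farthest libraries 0.86), Ccl19 and Cxcr5 r = 0.77 (rho 0.73, r without the 2 farthest libraries 0.78), and Cxcl13 and Ccl19 r = 0.67 (rho 0.69, r without the 2 farthest libraries 0.64), each with an adjusted permutation p of 2.1e-05 for r and 2.2e-05 for rho. In parenchyma Cxcl13 and Ccl20 had r = 0.63 (rho 0.55, r without the 2 farthest libraries 0.56), with the same adjusted permutation p values. Cxcl13 and Ccl19 had r = 0.50 (rho 0.41, r without the 2 farthest libraries 0.36) in parenchyma (adjusted permutation p = 0.0002 for r and 0.00016 for rho), and Cxcl13 and Ccl20 r = 0.40 (rho 0.33, r without the 2 farthest libraries 0.34) in airway (0.00081 and 0.0057). Ccl19 and Lta had r = 0.35 (rho 0.32, r without the 2 farthest libraries 0.35) in parenchyma (0.00052 and 0.0037). Ccl19 and Cxcr5 had r = 0.16 (rho 0.12, r without the 2 farthest libraries 0.24) in parenchyma (adjusted permutation p = 0.11 and 0.32). Ccl20 and Cxcr5 had r = -0.17 (rho -0.18, r without the 2 farthest libraries -0.10) in airway (adjusted permutation p = 0.18 and 0.14) and r = -0.27 (rho -0.32, r without the 2 farthest libraries -0.29) in parenchyma (0.035 and 0.0042). Differences between compartments in these correlations were not tested. Without the 12 airway libraries with high lymph node markers, r in airway was 0.87 for Cxcr5 and Ltb, 0.80 for Ccl19 and Lta, 0.63 for Ccl19 and Cxcr5 and 0.62 for Cxcl13 and Ccl19.

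**Figure D4:**
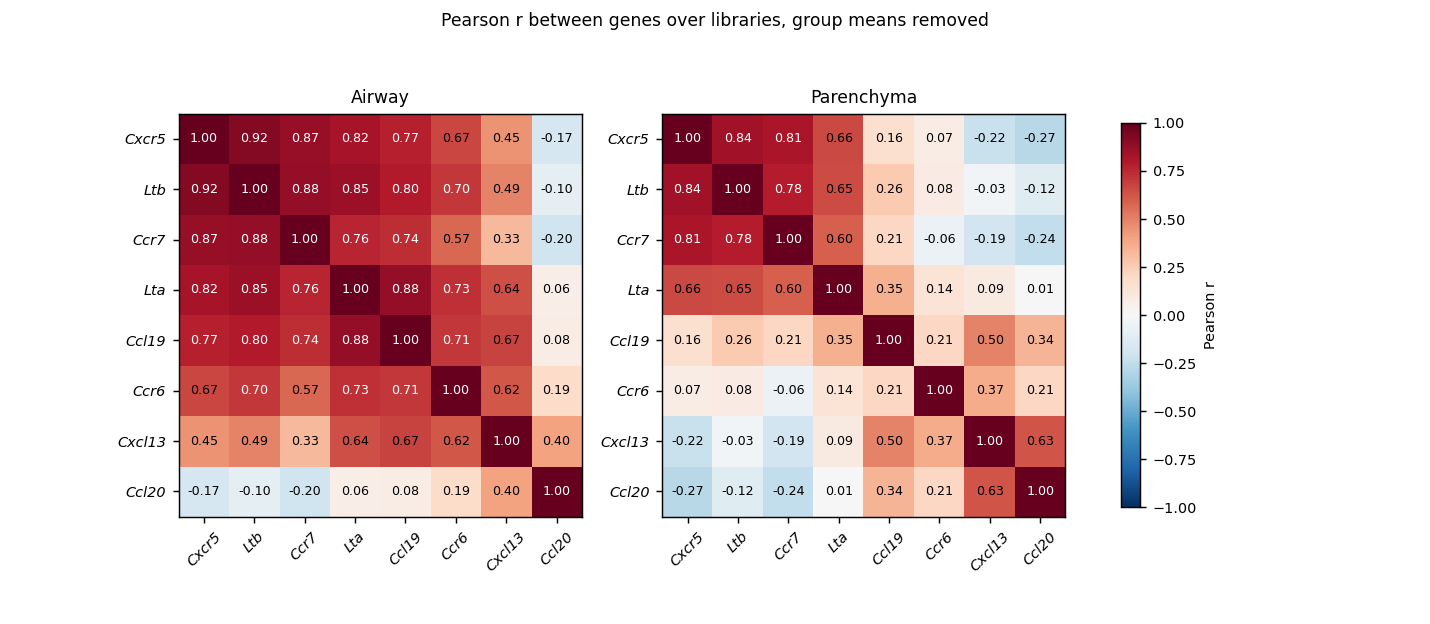
Pearson's r between the 8 genes over airway libraries (left) and parenchyma libraries (right) after removing group means, with red for positive and blue for negative values and r printed in each cell. The block of Cxcr5, Ltb, Ccr7 and Lta is red in both panels, and most other pairs are paler in parenchyma than in airway.

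Marker sums of lymphocytes varied with the same block, given here as a description. The 6 B cell markers had r = 0.97 with Cxcr5 in airway and 0.95 in parenchyma, and 0.91 and 0.82 with Ltb. The 7 T cell markers had r = 0.90 with Ccr7 in airway and 0.71 in parenchyma, and 0.87 and 0.74 with Cxcr5. B cell markers had 0.84 and 0.75 with Ccr7, so Ccr7 was not matched to the T cell markers alone. The thymocyte list (Rag1, Rag2, Dntt, Ptcra, Arpp21 and Cd8b1) had 0.90 and 0.77 with Ccr7. That list is not confined to thymocytes and is low, with a median sum of 6.14 CPM in PBS airways at 3 weeks. With Ccl20 the B cell markers had -0.15 and -0.24, and with Cxcl13 0.47 and -0.22. Lymph node markers had 0.85 with Ccl19 and 0.60 with Cxcl13 in airway, and 0.59 and 0.23 in parenchyma. They also had 0.79, 0.78, 0.81 and 0.75 with Cxcr5, Ccr7, Lta and Ltb in airway. With Ccl19 in airway the T cell markers had 0.85 and the B cell markers 0.78. Dendritic cell markers had 0.75 with Ccl19 and 0.52 with Cxcl13 in airway, and 0.45 and 0.40 in parenchyma. So no list was particular to the chemokines. The alveolar markers were at -0.68 with Cxcl13 and -0.67 with Ccl19 in airway and at -0.0581 and -0.12 in parenchyma. Values of 1 library share its dissection, RNA and depth.

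**Figure D5:**
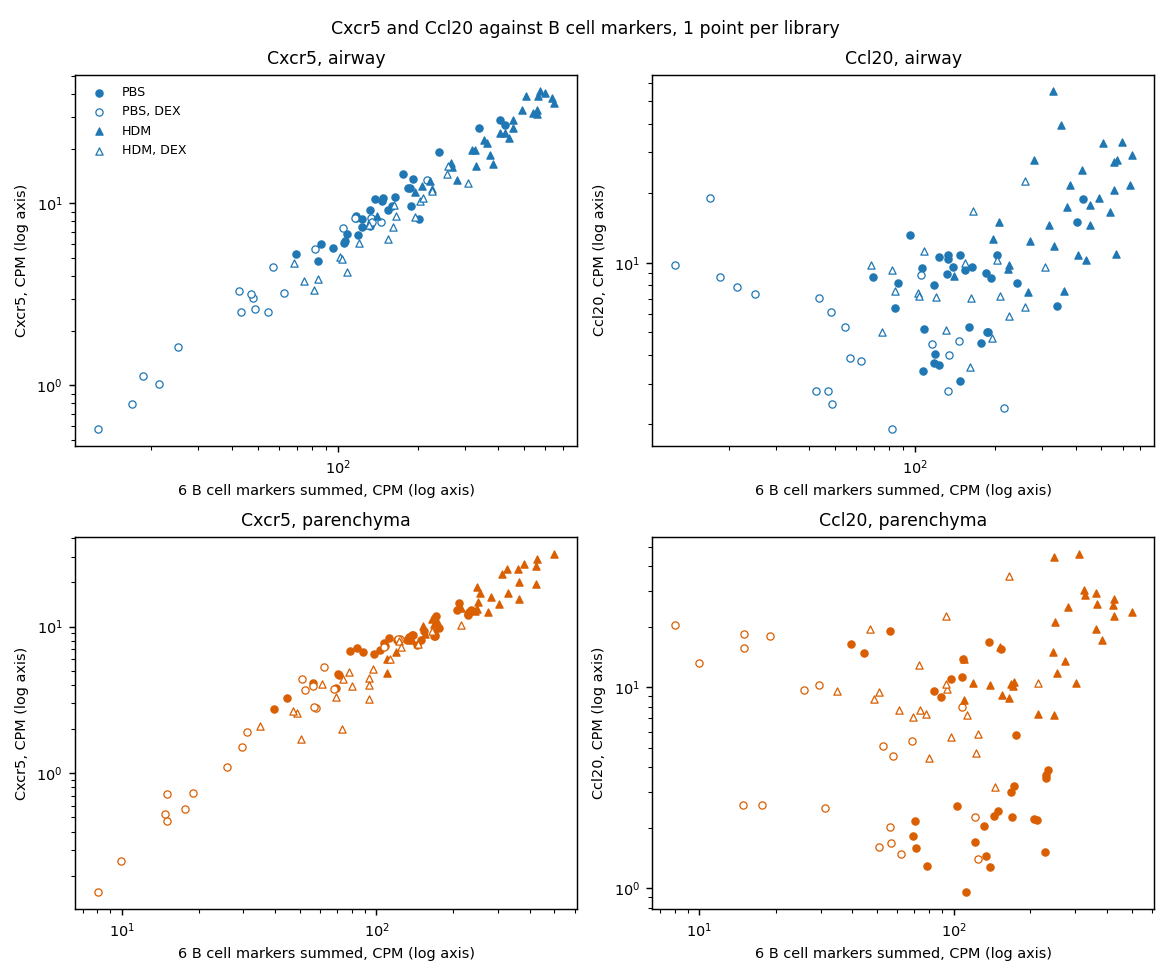
CPM of Cxcr5 (left) and Ccl20 (right) against the summed CPM of 6 B cell markers in each library (both log axes), in airway (top, blue) and parenchyma (bottom, orange), with circles for PBS, triangles for HDM and open symbols for dexamethasone. Cxcr5 follows the B cell markers closely in both compartments, while Ccl20 scatters widely at any B cell marker level.

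Over the 20 group means of log2 CPM, the 3 genes most like each of the 8 were found by Pearson's r among 17172 genes (17171 for Cxcr5). Nearest to Cxcr5 were Bank1, Ms4a1 (CD20) and H2-Ob, with r = 0.995, 0.995 and 0.994. Nearest to Cxcl13 were Bcat1 (0.984), Pcdh15 (0.975) and A2m (0.973). Ccl19 lay nearest to Ccl19-ps1 (0.981), Gm2564 (0.980) and Pcdh15 (0.974), and the first is its pseudogene, with which reads may be shared. Ccr7 lay nearest to Crisp3 (0.953), Cd27 (0.940) and Scml4 (0.937), and Ccl20 to Il4i1 (0.947), Gm16685 (0.946) and C3 (0.945). Nearest to Ccr6 were Akna (0.973), Fnbp1 (0.962) and Slc9a7 (0.959), to Lta Chst10 (0.986), Blnk (0.979) and Tnfaip8 (0.978), and to Ltb Calhm6 (0.987), Zbp1 (0.984) and Aif1 (0.983).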

How the data were processed

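Total RNA of dissected airway and parenchyma was sequenced as 100-bp single reads, and libraries were grouped by their labels. Per the labels, reads were handled with bcl2fastq 2.20.0.422, STAR 2.5.1b, RSEM 1.2.31 and kallisto 0.44.0 on mm10. The authors deposited 1 table of expected counts per gene from RSEM, of which 20.3% of nonzero values are not whole. These were rounded to whole numbers. Of 43346 identifiers, 42462 matched GENCODE M21 once version numbers were dropped. The strand setting of counting is not given in the sources used here. No column lacked a sample.

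Counts were scaled by TMM and tested with limma-voom (R 4.3.3, limma 3.58.1, edgeR 4.0.16), with Benjamini-Hochberg adjustment over all genes tested and no covariates. Genes were kept whose CPM reached, in 9 or more libraries, the value that 10 counts have in a library of median size. The 43 libraries of 3 weeks and the 160 of 11 weeks were fitted apart, and all together for the difference between weeks. Calls required an adjusted p under 0.05 and a log2FC of at least 1 in size. A pseudocount of 0.1 CPM was used for correlations, whose p values came from 100000 permutations within groups (scipy 1.17.1, numpy 2.4.6). Intervals are 95% and cover the model error of the log2FC only. limma-voom and edgeR were also run on simulated counts for the HDM airway comparison at 3 weeks. All genes had the same dispersion there, so wide groups such as Ccl19 in PBS airways were not covered. Every gene of the set is named in every comparison, and of each related list the 2 called genes with the largest log2FC in size, except that some are not reported here. The genes, lists and tests were chosen with earlier results of these data known. Alternatives were edgeR and DESeq2 1.42.0 tests, size factors, filters, the fit of all libraries, leaving out each 3-week library, sets of libraries left out after seeing the data, and neighbouring library codes as a block. Labels do not say which libraries share an animal, so p values measure the spread between libraries. Total counts had a median of 28090612 per library, and libraries of 1 group differed by more than counting noise.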

Additional observations from a re-analysis of the deposited data

Results flagged for a closer look

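For the 8 genes in 18 groups of 10 libraries, 19 of the combinations of gene and group (13.2%) held a library that stood apart from the rest of its group by Dixon's test. The nominal rate of about 1 in 20 is no yardstick for that share, since the genes vary together within groups and X65 alone was flagged for 7. The PBS.AIR airway library X65 was the highest of its group for 7 genes, with 93.97 CPM of Cxcl13, 25.9 of Cxcr5, 74.5 of Ccl19, 34.6 of Ccr7, 9.75 of Ccr6, 4.66 of Lta and 107.04 of Ltb. X89 (HDM.AIR airway) held 112.4 CPM of Ccl19 and 51.1 of Ccr7. X157 (HDM.CS airway) held 28.5 of Ccr7 and 86.9 of Ltb, and X75 (PBS.CS.DEX airway) 26.7 of Ccr7. These 4 libraries are among those with high lymph node markers, and the part of lymph node tissue in the values was not tested.

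Among HDM airways at 3 weeks, X63 held 514 CPM of Cxcl13 and X143 67.2 of Ccl19. X147 held 50.2 CPM of Cxcl13 among PBS.AIR.DEX airways. Ccl20 stood out at 13.2 CPM in X33 (PBS.CS airway), 19.000 in X175 (PBS.CS.DEX airway), 19.4 in X180 (HDM.CS.DEX parenchyma) and 7.95 in X108 (PBS.AIR.DEX parenchyma).

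Some effects differed between exposures, compartments or weeks by a test of the difference itself (limma-voom, adjusted p under 0.05). The HDM effect in smoke minus that in air was -2.84 for Ccl19, -1.33 for Lta, -1.29 for Ccl20, -1.21 for Ccr7, -0.99 for Ccr6 and -0.98 for Ltb in airway, on the log2 scale. In parenchyma it was -3.63 for Ccl20, -3.40 for Ccl19, -2.20 for Cxcl13, -1.84 for Lta, -1.40 for Ccr6 and -1.07 for Ltb. The HDM effect on Ccl20 at 11 weeks was -1.81 in airway relative to parenchyma. For Ccr6 the HDM effect at 11 weeks minus that at 3 weeks was -1.65 in airway and -1.85 in parenchyma.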

How the results depend on the processing

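Of the log2FC values recomputed under other settings, 1419 kept their direction and their side of the threshold, 44 passed it, 34 lost it and 15 changed sign. Of the counts of genes called, 356 stayed within 1.5 times and 32 moved. The causes were not tested unless stated. The direction of each HDM rise called by limma-voom was kept under every setting, and the sign changes with edgeR and DESeq2 were in values not called by limma-voom: Ccr7 with HDM in airway at 3 weeks (-0.0549 and -0.0232), its airway minus parenchyma difference of the HDM effect at 3 weeks (-0.0618 and -0.12, and -0.0359 with genes of at least 10 CPM), its difference between PBS.AIR compartments (0.17 and 0.18, 0.00267 with at least 10 CPM and 0.0111 without a filter), Cxcl13 with smoke alone in airway (-0.16 and -0.17) and, with edgeR, Lta between weeks in airway (0.0103).

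edgeR and DESeq2 called 3 genes for the difference of the HDM effect between compartments at 3 weeks and 4 at 11 weeks, and DESeq2 called 2 between weeks in parenchyma and 1 for dexamethasone in HDM and smoke in airway. They called 0 for smoke added to HDM in airway, smoke alone in airway and dexamethasone alone in parenchyma, where 7 and 7, 3 and 2 and 3 and 4 genes had an unadjusted p under 0.05 in edgeR and DESeq2. Smoke alone in airway also gave 0 calls without a filter and 0 with airway libraries alone. With no limit on log2FC, 8 genes passed for dexamethasone in HDM parenchyma, 7 and 6 for smoke added to HDM in airway and parenchyma, and 2 for smoke alone in airway. With at least 10 CPM, where fewer genes are tested, 1 and 2 were called between PBS compartments at 3 and 11 weeks, 1 for dexamethasone alone in parenchyma and 1 for smoke alone in parenchyma. With the libraries of both weeks in 1 fit, 1 gene differed between compartments at 3 weeks.

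Without the airway libraries with high lymph node markers, left out after seeing those sums, 8 genes were called for the HDM by smoke interaction in airway and 4 for dexamethasone in HDM and smoke in airway. No PBS.CS library was among those left out, and at 3 weeks only PBS libraries were. Signs changed without them for Lta in the compartment difference of the HDM effect at 3 weeks (0.14) and for Ltb (-0.20) and Cxcr5 (-0.24) between PBS compartments at 3 weeks. Without X11, X12, X131 and X132, left out for their high Cxcl13, 8 genes were called for dexamethasone in HDM parenchyma. Leaving out each 3-week library in turn gave 7 calls with HDM in airway, 6 to 7 in parenchyma, 0 to 1 for the difference between compartments and 3 between PBS compartments. Parenchymal correlations near 0 changed sign for Cxcl13 and Lta (-0.0408 without the 2 farthest libraries) and for Ccl20 and Lta (-0.0255 as rho, -0.0525 without 2). No paired analysis was possible because the labels give library codes without an animal, and no number is shared between groups. As a hint from the data and not from the design, deviations from the group mean were correlated over all genes tested between airway and parenchyma libraries with neighbouring codes and the same exposure, and r was -0.19 to 0.36 (median 0.16) in 21 such pairs at 3 weeks and 0.00435 to 0.54 (median 0.25) in 80 at 11 weeks, and 13 and 60 airway libraries correlated best with their neighbour among the parenchyma libraries of that exposure. With neighbouring codes as a block, a setting chosen after seeing the data, 1 and 2 genes were called for the difference of the HDM effect between compartments at 3 and 11 weeks (Ccl20 at -1.19, adjusted p = 0.036, and at 11 weeks also Cxcl13 at -1.53, adjusted p = 0.00831), and 3 and 4 between PBS compartments, as without it. Levels under 1 CPM rest on few counts, and the precision there is set by depth.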
